A study of Mus musculus with 12 samples.

Results

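The interleukin-1 (IL-1) family was examined in mouse pancreatic tumours treated with FAKi, which inhibits focal adhesion kinase, a kinase at sites of cell attachment to matrix, or with vehicle. It was represented by 10 genes, the ligands Il1a, Il1b, Il33 and Il18, the antagonist Il1rn and the receptor chains Il1r1, Il1r2, Il1rap, Il1rl1 and Il18r1. Every probe that the array design names after one of these genes was taken, which gave 21 of 56605 probes, and all 10 genes were found among the 27350 genes tested. The FAKi group was 6 female C57BL/6 mice with orthotopic KP tumours that received the inhibitor at 50 mg/kg by gavage over 14 days. The vehicle group was 6 such mice that received vehicle over 14 days, and the age given for both groups is 8 weeks. All 12 animals thus carried the tumour, and no tumour-free pancreas was part of the comparison. Total RNA of tumour tissue was labelled with Cy5 and read on one-colour Agilent arrays, 1 per tumour. The labels number the tumours and do not say whether the KP cells were 1 clone, so p-values measure the spread between these tumours. Because each sample was a piece of tissue, fewer cells of a type and less RNA per cell cannot be told apart.

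IL-1α and IL-1β, the products of Il1a and Il1b, bind the receptor encoded by Il1r1, which then recruits the accessory chain encoded by Il1rap and signals through MyD88 and IRAK kinases to NF-κB. Il1rn encodes an antagonist that occupies the same receptor without recruiting the accessory chain, and Il1r2 encodes a decoy receptor that binds ligand without signalling. IL-33 is a nuclear protein released by damaged epithelial and stromal cells, and it binds ST2, the product of Il1rl1, with the same accessory chain, while a soluble form of ST2 acts as a decoy. IL-18 binds the chain encoded by Il18r1, paired with that encoded by Il18rap. IL-1β and IL-18 are made as precursors that caspase-1 cleaves, a step that transcript levels do not show. In pancreatic tumours IL-1 is known as a signal that drives an inflammatory state in fibroblasts.

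Levels are given as log2 relative signal, which is the log2 processed signal of a probe minus the 75th percentile of all probes on its array. Levels of different genes cannot be set against each other, and sums over markers serve only to compare tumours. Each gene was read from its brightest probe unless another is named. All 10 epithelial markers, such as Epcam and Krt19, and 8 of the 9 measured markers of acinar pancreas were well above background on all arrays. On every array 66.6% to 76.1% of spots were well above background, and 0 spots were saturated. FAKi 6, vehicle 5 and vehicle 6 stood apart, with median correlations with the other arrays of 0.938, 0.930 and 0.920 across genes, against 0.950 to 0.963 for the other 9. The difference of each member is therefore also given without these 3 tumours, a choice made after the data were seen. Of the 5 slides, slide 1 held FAKi 5 with vehicle 3 and 5, slide 4 held FAKi 1 with vehicle 2 and 6, and the others held 1 group each. A fit with slide as a fixed block, called the slide block below, therefore takes its difference from slides 1 and 4 alone. It compares only FAKi 1 and FAKi 5 with vehicle 2, 3, 5 and 6.

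Of the 10 members, 0 differed between FAKi and vehicle tumours after adjustment over all genes by limma with the Benjamini-Hochberg method (adjusted p = 0.999 for each), against a background of 0% of the 27350 genes. At an unadjusted p under 0.05 there was 1 member, Il33, against 4.79% of all genes (2.72% higher and 2.07% lower in FAKi tumours). The difference was below 0 for 8 members and above 0 for 2, where 39.5% of all genes lay below 0 and 60.5% above, and the median over members was −0.17 beside a median of 0.08 over all genes. The FAKi and vehicle values of each member overlapped. Groups without overlap were seen for 0.239% of genes. All 10 genes passed the filter on dim probes, which asked for a signal well above background on 6 or more arrays, counted over both groups together. At the probe level 18 of the 21 probes passed it, and 14 were well above background on every array.

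**Figure D1:**
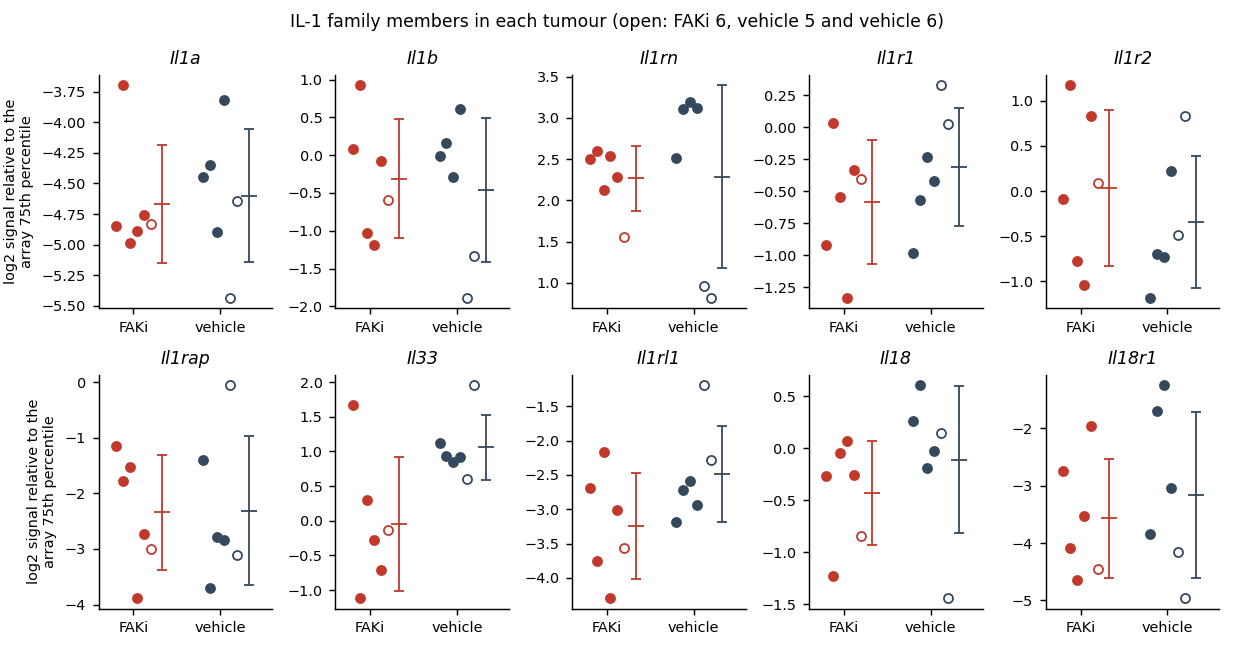
Log2 relative signal of the brightest probe of each member in the 6 FAKi tumours (left of each panel) and the 6 vehicle tumours (right). Each point is 1 tumour, bars are the mean and SD, and open points are FAKi 6, vehicle 5 and vehicle 6. In the Il33 panel 5 FAKi points lie below every vehicle point.

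Among the ligands of the IL-1 receptor, neither gene differed beyond the spread between tumours. Il1a had log2 relative signals with a lowest value of −4.98, a median of −4.84 and a highest value of −3.70 in FAKi tumours, against −5.44, −4.55 and −3.82 in vehicle tumours. FAKi 2 stood above every vehicle tumour, and the other 5 FAKi tumours lay between −4.98 and −4.76. The difference was −0.07 (SE 0.30, 95% interval −0.71 to 0.58), and −0.26 without FAKi 6, vehicle 5 and vehicle 6. The slide block gave 0.028, with 0.41 inside slide 1 and −0.35 inside slide 4.

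Il1b had a lowest value of −1.19, a median of −0.33 and a highest value of 0.93 in FAKi tumours, against −1.89, −0.15 and 0.61 in vehicle tumours. FAKi 2 was again the highest tumour of the 12 and vehicle 5 the lowest. The difference was 0.15 (SE 0.46, 95% interval −0.85 to 1.14). With slide as a block it was 0.84, with 1.02 inside slide 1 and 0.66 inside slide 4. Those slides hold vehicle 5 (−1.89) and vehicle 6 (−1.33), the lowest vehicle tumours. The difference changed sign, to −0.37, without FAKi 6, vehicle 5 and vehicle 6. The other probes of Il1b gave −0.27 for a site further downstream on the same transcript, and 0.45 for a further transcript that was well above background on 6 FAKi and 4 vehicle arrays. Without FAKi 6, vehicle 5 and vehicle 6 these probes gave −0.88 and −0.40, in the same order.

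Il1a and Il1b moved together from tumour to tumour. Their Pearson correlation over the 12 tumours was 0.836 (permutation p = 0.00053, adjusted p = 0.0239 over the 45 pairs of members), and Spearman's rho was 0.762 (permutation p = 0.00567, adjusted p = 0.138 over the same pairs). The correlation was 0.831 within the FAKi tumours and 0.862 within the vehicle tumours (exact permutation p = 0.0153 and 0.0208, unadjusted), and 0.828 with slide means removed. Without FAKi 2 and vehicle 4, the tumours farthest from the median of Il1a, it was 0.706, and without FAKi 6, vehicle 5 and vehicle 6 it was 0.845. With normexp background correction it was 0.187, and Il1a was a dim gene on these arrays. The pairs were chosen for testing after the data were seen.

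Both genes lie on chromosome 2 on the minus strand. Since they moved together, the 250 bases before each start site are shown, as RefSeq gives them for GRCm38.p6, at chr2:129309973-129310222 for Il1a and chr2:129371140-129371389 for Il1b. Capitals mark matches to the motifs searched.
Il1a: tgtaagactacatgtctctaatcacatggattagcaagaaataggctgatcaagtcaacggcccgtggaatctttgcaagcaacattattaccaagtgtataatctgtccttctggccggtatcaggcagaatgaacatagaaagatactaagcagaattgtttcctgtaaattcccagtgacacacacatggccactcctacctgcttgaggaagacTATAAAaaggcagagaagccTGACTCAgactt
Il1b: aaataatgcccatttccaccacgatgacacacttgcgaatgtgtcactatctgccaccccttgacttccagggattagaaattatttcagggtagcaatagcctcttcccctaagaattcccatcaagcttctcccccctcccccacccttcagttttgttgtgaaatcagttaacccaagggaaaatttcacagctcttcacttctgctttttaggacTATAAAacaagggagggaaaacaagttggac
Both stretches held a TATA box, searched as TATAAA on both strands, which began 32 bases before the start of Il1a and 31 bases before that of Il1b. Of all 32851 promoter stretches of the same length, 12.4% held it. Il1a also held 1 match to the AP-1 motif TGANTCA, 12 bases before the start, which 6.75% of promoters held, and it did not overlap the TATA box. Neither stretch held the C/EBP motif TTNNGCAA (9.56% of promoters) or the NF-κB consensus (7.25% of promoters), each searched on both strands. Such matches describe letters and do not show binding.

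The antagonist gene Il1rn had a lowest value of 1.56, a median of 2.39 and a highest value of 2.60 in FAKi tumours, against 0.82, 2.81 and 3.19 in vehicle tumours. The vehicle tumours fell into 4 at 2.52 or above and 2, vehicle 5 and vehicle 6, at 0.96 and 0.82. FAKi 6 was the lowest FAKi tumour. The difference over all tumours was −0.02 (SE 0.44, 95% interval −0.97 to 0.94). Without FAKi 6, vehicle 5 and vehicle 6 it was −0.57 (SE 0.20, limma adjusted p = 0.186). The slide block gave 0.37, with 0.21 inside slide 1 and 0.54 inside slide 4, where the vehicle means include vehicle 5 or vehicle 6. The upstream probe of Il1rn gave 0.19 over all tumours and −0.32 without those 3.

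Among the receptors of IL-1, the decoy receptor gene Il1r2 had the largest difference above 0. Its lowest value was −1.04, its median 0.00 and its highest 1.17 in FAKi tumours, against −1.18, −0.59 and 0.83 in vehicle tumours. FAKi 2 was the highest tumour, followed by vehicle 6 and FAKi 5, which were level. The difference was 0.37 (SE 0.43, 95% interval −0.55 to 1.29), and the second probe of the same transcript gave 0.54 with 3 FAKi tumours above every vehicle tumour. Without FAKi 6, vehicle 5 and vehicle 6 the brightest probe gave 0.61. The slide block gave 0.64, with 1.43 inside slide 1 and −0.16 inside slide 4.

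Il1r1, the signalling receptor, had a lowest value of −1.33, a median of −0.48 and a highest value of 0.04 in FAKi tumours, against −0.98, −0.33 and 0.33 in vehicle tumours. The groups overlapped over most of their range, and vehicle 5 and vehicle 6 were the 2 highest vehicle tumours. The difference was −0.28 (SE 0.28, 95% interval −0.88 to 0.33), and −0.07 without FAKi 6, vehicle 5 and vehicle 6. The slide block gave −0.51, with −0.38 inside slide 1 and −0.65 inside slide 4.

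The accessory chain gene Il1rap was read by 4 probes, of which that for the membrane form was the brightest. In FAKi tumours its lowest value was −3.88, its median −2.25 and its highest −1.16, against −3.71, −2.81 and −0.06 in vehicle tumours. Vehicle 5 stood above all other tumours. The difference was −0.03 (SE 0.61, 95% interval −1.35 to 1.29), with −1.30 inside slide 1, 2.25 inside slide 4 and 0.47 both from the slide block and without FAKi 6, vehicle 5 and vehicle 6. The probe for the soluble form, well above background on 3 FAKi and 3 vehicle arrays, gave −0.15. The remaining probes, for 2 further transcripts, were well above background on 2 and 6 of the 12 arrays, and they gave −0.39 and −1.04.

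Of all members, Il33 had the largest difference. Its values were 1.67, −1.12, 0.30, −0.28, −0.70 and −0.13 in FAKi 1 to FAKi 6, against 1.12, 0.93, 0.84, 0.91, 0.61 and 1.95 in vehicle 1 to vehicle 6. Of the FAKi tumours 5 lay below every vehicle tumour, and FAKi 1 lay above all vehicle tumours but 1. The mean was −0.04 ± 0.97 in FAKi and 1.06 ± 0.47 in vehicle tumours (SD, n = 6 each), a difference of −1.11 (SE 0.41, 95% interval −1.99 to −0.22) that did not pass adjustment over all genes (limma adjusted p = 0.999). FAKi 1 was the only FAKi tumour not below every vehicle tumour, so leaving it out separates the groups by construction. Without FAKi 1 the difference was −1.45 (limma adjusted p = 0.202). Inside slide 1 it was −1.43, inside slide 4, which holds FAKi 1, it was 0.23, and the slide block gave −0.60.

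Il33 was read at 2 places of 1 transcript. The brightest probe, on which these values rest, lay at chr19:30035101-30035160 (mm9, plus strand), near the 3′ end. The other lay upstream at chr19:30024240-30026507, where its 60 bases span an intron, and it is shown because it gave a smaller difference.
Il33 upstream probe: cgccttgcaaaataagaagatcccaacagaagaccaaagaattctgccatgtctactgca
With the upstream probe the lowest value was −3.64, the median −0.26 and the highest 1.33 in FAKi tumours, against −2.94, 0.33 and 0.68 in vehicle tumours. FAKi 6 and vehicle 5 were the lowest, and all other tumours lay at −1.73 or above. The difference was −0.51 (SE 0.82, 95% interval −2.27 to 1.25), and without FAKi 6, vehicle 5 and vehicle 6 it was −0.40 (SE 0.55), where the 3′ probe gave −0.98 (SE 0.48, limma adjusted p = 0.326). Inside slide 1, which holds vehicle 5, the upstream probe gave 0.35. Inside slide 4, which holds FAKi 1 and vehicle 6, it gave 0.85. The correlation of the 2 probes over the 12 tumours was 0.54.

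The same tumours stood apart over the whole array when upstream and downstream probes were compared. In 3874 transcripts with 2 probes at least 300 bases apart, the upstream minus downstream log2 difference was centred per transcript and its median taken per array. It was −0.56 in FAKi 6, −0.72 in vehicle 5 and −0.25 in vehicle 6, and between 0.06 and 0.40 in the other 9 tumours. For Il33 it was −2.58 in FAKi 6, −2.62 in vehicle 5 and −0.35 in vehicle 6. For Il1rn it was −0.89 in FAKi 6 and −1.11 in vehicle 5, but 0.27 in vehicle 6. For Il1b these tumours had −0.82, −0.53 and −0.32 in the same order, and for Il1r2 −0.70, −0.65 and −1.03. The part of this shift in the differences between FAKi and vehicle tumours was not tested beyond leaving these tumours out.

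**Figure D2:**
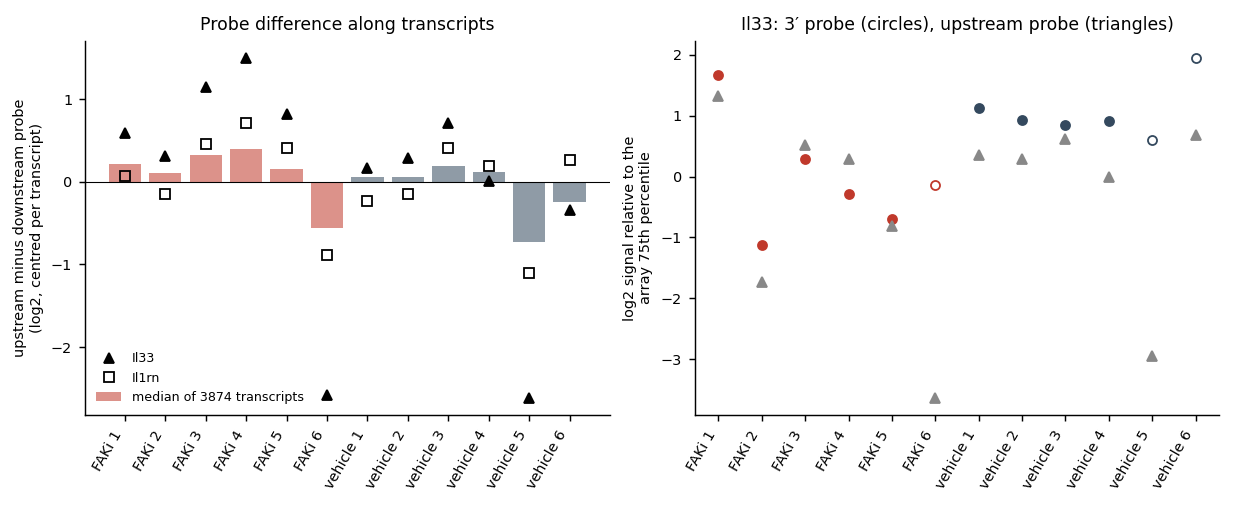
Left, upstream minus downstream probe difference per array on a log2 scale, as the median of 3874 transcripts (bars, FAKi in red, vehicle in blue-grey) and for Il33 and Il1rn (symbols). FAKi 6, vehicle 5 and vehicle 6 have negative medians. Right, log2 relative signal of the 2 Il33 probes in each tumour, in which the upstream probe is lowest in FAKi 6 and vehicle 5.

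Il1rl1, which encodes the IL-33 receptor ST2, had the second largest difference. The probe for the membrane form had a lowest value of −4.29, a median of −3.29 and a highest value of −2.16 in FAKi tumours, against −3.19, −2.66 and −1.19 in vehicle tumours. Of the FAKi tumours 3 lay below every vehicle tumour, and vehicle 5 was the highest of the 12. The difference was −0.76 (SE 0.40, 95% interval −1.62 to 0.10), and −0.32 (SE 0.40) without FAKi 6, vehicle 5 and vehicle 6. The slide block gave −0.66, with −1.12 inside slide 1 and −0.19 inside slide 4. Over the tumours this probe went with endothelial, fibroblast, and monocyte and macrophage markers at r = 0.790, 0.716 and 0.714, of which none passed adjustment over the 100 pairs described further on (permutation adjusted p = 0.1, 0.150 and 0.150). The score of endothelial markers averaged −0.23 ± 0.43 in FAKi and 0.23 ± 0.64 in vehicle tumours (SD, n = 6 each). Without FAKi 6, vehicle 5 and vehicle 6 it averaged −0.10 ± 0.31 in 5 FAKi and 0.012 ± 0.56 in 4 vehicle tumours. The fibroblast score averaged 0.013 in FAKi and −0.013 in vehicle tumours, and that of monocytes and macrophages −0.055 in FAKi and 0.055 in vehicle tumours. With those 3 tumours left out, the fibroblast score averaged 0.084 in FAKi and −0.34 in vehicle tumours. That of monocytes and macrophages then averaged 0.067 in FAKi and −0.16 in vehicle tumours. All 10 endothelial markers were measured, and 9 were well above background on every array. Their summed signal relative to the 75th percentile ran between 6.93 and 15.6 in FAKi and between 7.08 and 29.0 in vehicle tumours, and the part of these cells in the difference was not tested.

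The probe for the soluble form of ST2 varied more between tumours than it did between groups. It had a lowest value of −5.12, a median of −3.92 and a highest value of −0.83 in FAKi tumours, against −5.04, −3.20 and −0.68 in vehicle tumours. The highest were vehicle 5, FAKi 3, FAKi 1 and vehicle 6, all above −1.30, and the lowest, near −5, were FAKi 4, FAKi 5 and vehicle 2. The difference was −0.33 (SE 0.93, 95% interval −2.33 to 1.67), and it was 0.91 (SE 0.97) without FAKi 6, vehicle 5 and vehicle 6. Within an array, the soluble minus membrane log2 difference, centred on the vehicle mean, ran between −1.49 and 2.0 in FAKi tumours and between −1.81 and 1.53 in vehicle tumours. Another probe of the membrane form was not well above background on any array.

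**Figure D3:**
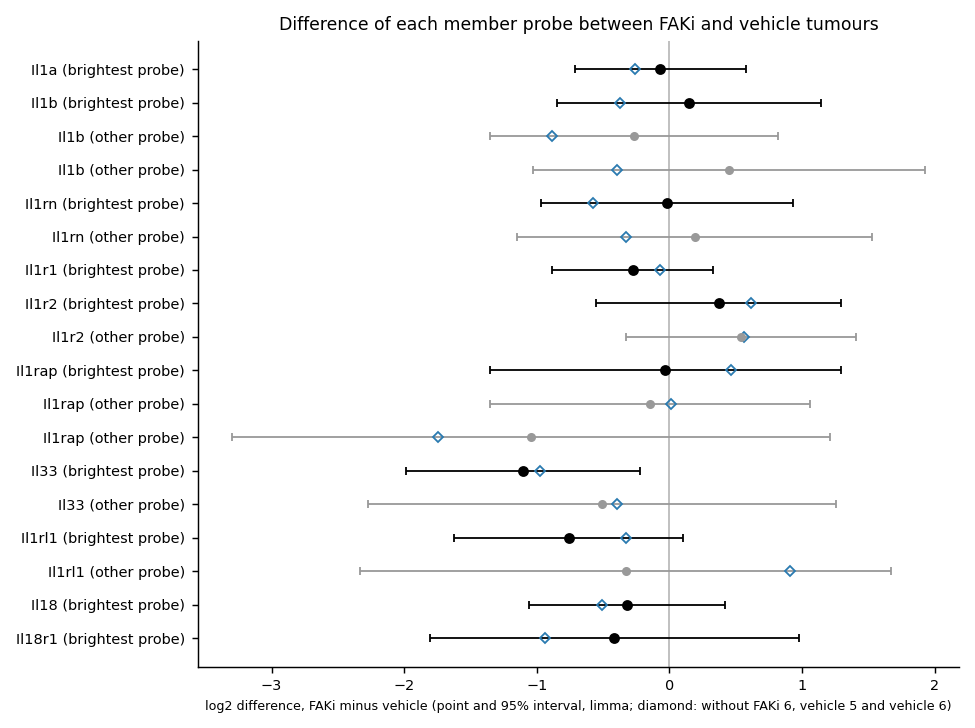
Log2 difference, FAKi minus vehicle, of the 18 member probes well above background on at least 6 arrays, with 95% intervals from limma (black, brightest probe of a gene; grey, other probes). Diamonds give the difference without FAKi 6, vehicle 5 and vehicle 6, and only the interval of the brightest Il33 probe lies wholly below 0.

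On the IL-18 side, the ligand Il18 had a lowest value of −1.22, a median of −0.27 and a highest value of 0.06 in FAKi tumours, against −1.44, 0.06 and 0.60 in vehicle tumours. FAKi 2, FAKi 6 and vehicle 6 were the 3 lowest, and the other 9 tumours lay at −0.27 or above. The difference was −0.32 (SE 0.34, 95% interval −1.06 to 0.42), and −0.51 without FAKi 6, vehicle 5 and vehicle 6. The slide block gave −0.04, with −0.23 inside slide 1 and 0.15 inside slide 4.

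Its receptor chain Il18r1 had a lowest value of −4.65, a median of −3.80 and a highest value of −1.96 in FAKi tumours, against −4.96, −3.44 and −1.25 in vehicle tumours. It was well above background on 6 FAKi and 5 vehicle arrays and spread more widely within each group than the group means differed. The difference was −0.42 (SE 0.65, 95% interval −1.81 to 0.98). Without FAKi 6, vehicle 5 and vehicle 6 it was −0.94, and the slide block turned it to 0.66, with 0.74 inside slide 1 and 0.57 inside slide 4. A second transcript of Il18r1 was well above background on only 3 arrays. The partner chain Il18rap, no member of the list, averaged −2.99 ± 1.13 in FAKi and −1.85 ± 1.1 in vehicle tumours (SD, n = 6 each), and 0 of 6 FAKi tumours lay above the vehicle mean. Its difference was −1.14 (SE 0.58, 95% interval −2.37 to 0.10, limma adjusted p = 0.999), and −0.41 without FAKi 6, vehicle 5 and vehicle 6.

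The rest of the pathway was followed in 4 lists with 72 genes, of which 65 were measured and 0 passed after adjustment over all genes in the same fit. Of the 5 measured further family members, 3 lay above 0 and 2 below, and Il18bp, the secreted inhibitor of IL-18, had 0.58 (SE 0.48), with 1.85 from the slide block and 0.25 without FAKi 5. Of 16 inflammasome and processing genes, 10 lay above 0 and 6 below. Casp1, which cleaves the precursors of IL-1β and IL-18, had −0.59 (SE 0.35), and 0.065 with slide as a block. The DNA sensor Aim2 had 1.63 (SE 1.09), with vehicle 5 at −8.25 and vehicle 6 at −7.11, both not well above background. Without these and FAKi 6 its difference was 0.027, and with normexp it was 0.48. Of 23 genes that signal from the receptor, 10 lay above 0 and 13 below, with a median of −0.12. Rel, a subunit of NF-κB, had −0.43 (SE 0.24), or −0.19 as the mean of its probes, and Nfkbia, its inhibitor, had 0.32 (SE 0.20).

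Of 21 measured genes known to be induced by IL-1, 11 lay above 0 and 10 below, with a median of 0.03 beside 0.08 over all genes. At an unadjusted p under 0.05 there were 2 of the 65 pathway genes, or 3.08%, close to the 4.79% of all genes, and both were in this list. Csf2, which encodes the growth factor GM-CSF, averaged −0.81 ± 0.87 in FAKi and −1.95 ± 0.67 in vehicle tumours, and 5 of 6 FAKi tumours lay above the vehicle mean (difference 1.15, SE 0.42). The hyaluronan synthase gene Has2 averaged −3.99 ± 2.69 in FAKi and −1.24 ± 0.48 in vehicle tumours, and 5 of 6 FAKi tumours lay below the vehicle mean (difference −2.75, SE 0.97). FAKi 4, at −8.35, was not well above background, and with normexp the difference was −1.56. After adjustment neither Csf2 nor Has2 passed (limma adjusted p = 0.999 and 0.993).

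Members were then set beside scores of 10 cell type marker lists, each score being the mean of the markers' log2 levels centred per gene. The acinar pancreas score had the largest difference of group means, with 0.26 ± 0.20 in FAKi and −0.26 ± 0.39 in vehicle tumours (SD, n = 6 each). That difference was 0.52, and 0.54 without FAKi 6, vehicle 5 and vehicle 6. Its part in the differences of the members was not tested. Of 100 pairs of a member and a list, 1 passed adjustment. Il1r2 rose with T and NK cell markers over the 12 tumours, with r = 0.867 (permutation p = 0.00021, adjusted p = 0.021) and rho = 0.895 (permutation p = 0.00019, adjusted p = 0.019). The correlation was 0.859 within FAKi tumours and 0.900 within vehicle tumours (exact permutation p = 0.0194 and 0.0139, unadjusted), and 0.933 with slide means removed. Without FAKi 5 and vehicle 1, the tumours farthest from the median score, it was 0.878 (permutation adjusted p = 0.097), and without FAKi 6, vehicle 5 and vehicle 6 it was 0.866 (permutation adjusted p = 0.118). With slide means removed, or within 1 group, it did not pass adjustment (exact permutation adjusted p between 0.232 and 0.876). All 11 T and NK cell markers were measured and well above background on every array, and their summed relative signal ran between 8.93 and 37.9 in FAKi and between 7.38 and 20.5 in vehicle tumours.

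The next closest relations did not pass in this setting, but did in others. Il1rn went with epithelial markers at r = 0.802 (permutation p = 0.0019, adjusted p = 0.095; rho = 0.762, adjusted p = 0.158), and r was 0.585 without FAKi 6, vehicle 5 and vehicle 6. Il1rl1 went with endothelial markers at r = 0.790 (permutation p = 0.003, adjusted p = 0.1; rho = 0.741, adjusted p = 0.158), and r was 0.590 without those 3 tumours. Without the 2 tumours farthest from the median score, the correlations were 0.683 for Il1rn and 0.610 for Il1rl1. Il1rn with epithelial markers passed adjustment with quantile normalisation, median centring, normexp, the authors' deposited table and the mean of its probes (adjusted p between 0.008 and 0.036). Il1rl1 with endothelial markers passed with normexp (adjusted p = 0.036) and median centring (adjusted p = 0.0413), and with fibroblast markers it passed with normexp (adjusted p = 0.0285).

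**Figure D4:**
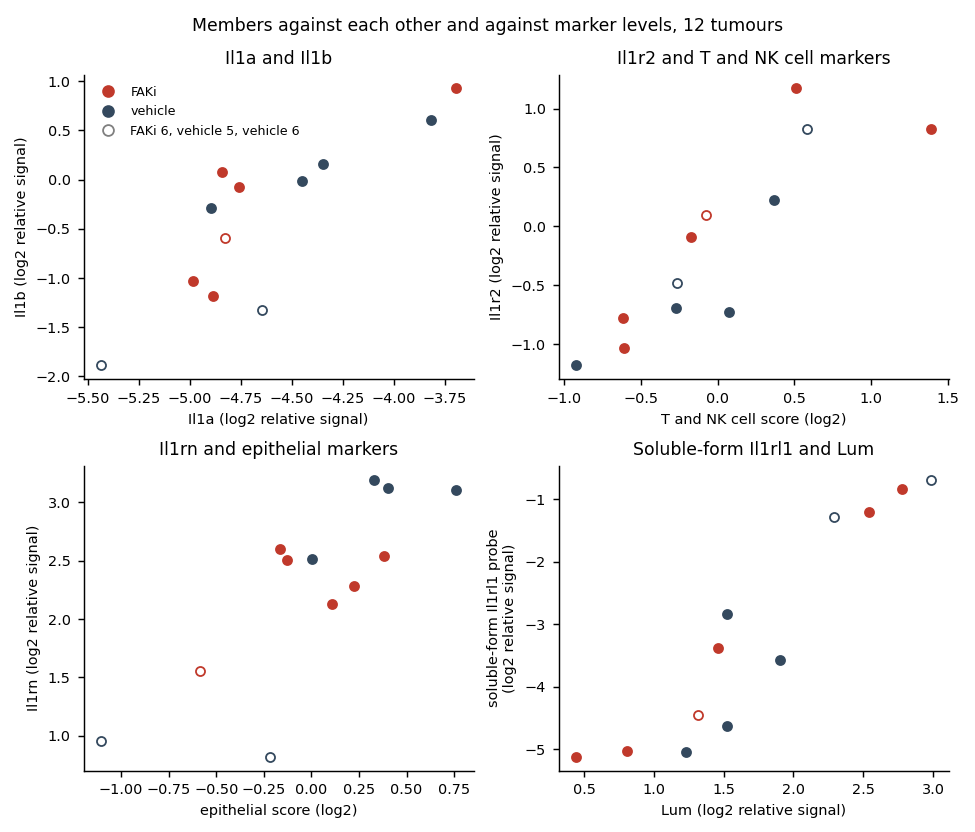
Each point is 1 of the 12 tumours (red, FAKi; blue-grey, vehicle; open, FAKi 6, vehicle 5 and vehicle 6), on log2 scales. Il1a against Il1b (r = 0.836), Il1r2 against the T and NK cell score (r = 0.867) and the soluble-form Il1rl1 probe against Lum (r = 0.933) rise across both groups, and in the Il1rn panel vehicle 5 and vehicle 6 are the lowest points.

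For each member the 2 genes of most similar pattern over the 12 tumours were sought among 17011 named genes with a value on every array, by Pearson r, which is high by selection and is given as a description. Il1a was closest to Chd5 (0.898) and to Csf3 (0.888), the gene of the growth factor G-CSF and one of the genes known to be induced by IL-1. Il1b was closest to Mbd1 (0.911) and Gbp6 (0.883), a guanylate-binding protein induced by interferon. Il1r2 was closest to another of that family, Gbp10 (0.899), and to Speer5-ps1 (0.895). Il1rn was closest to Sh2d1b1 (0.970) and Sdcbp2 (0.956). For Il1rl1 they were Cyb5d2 (0.972) and Kcnk13 (0.939), and for Il33 Asah2 (0.919) and Fggy (0.872). Il1r1 gave Sik2 (0.913) and Ugcg (0.908), and Il1rap gave Dlg4 (0.956) and Gpx8 (0.952). Il18 gave Mpc2 (0.903) and Deptor (0.902), an inhibitor of mTOR, and Il18r1 gave Gstp3 (0.919) and Eif4e3 (0.918). The soluble-form probe of Il1rl1, searched after its values were seen, was closest to Lum (0.933), the gene of the fibroblast matrix protein lumican, with 0.981 within FAKi and 0.902 within vehicle tumours.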

How the data were processed

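The deposited intensity values came from Agilent Feature Extraction 11.5.1.1, per the file headers, run on one-colour Cy5 scans of an array designed on mm9. Per the file headers the software subtracted background and detrended by position, but the values of FAKi 1 and FAKi 6 had not been divided by the multiplicative detrend surface (0.867 to 1.06 over these arrays), as those of the other 10 had. A deposited table of log2 values for 38569 probes served as an alternative only. The submitters' processing notes name limma, without saying how the table was normalised.

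Spots marked as outliers (71 to 156 per array) were left out, log2 processed signal was centred on the array's 75th percentile (11.8 to 13.9 before centring), and spots of a probe were averaged. Probes well above background on at least 6 of 12 arrays were kept (40456), and a gene was read from its brightest probe. FAKi was compared with vehicle with limma 3.58.1 (lmFit and eBayes, R 4.3.3), no covariate, adjusted over 27350 genes at 0.05. Other probes of a member come from a fit over all probes. Correlations used 100000 permutations, or all orders within groups of 6 (720) or within slides (432).

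On simulated data for FAKi against vehicle (5 simulations, 200 changed genes of 27240), the fit recovered 11.8% of shifts of 1 log2 unit, 69.6% of shifts of 2 and 92.7% of shifts of 3. The number of arrays limits the precision. Replicate numbers did not pair the tumours: same-numbered tumours correlated at −0.118 to 0.485 in their deviations from the group means. Members, gene lists and the rule for named genes (all members, the 2 genes of smallest unadjusted p per pathway list, the 2 most alike genes per member) were chosen with earlier results of these data known. Alternatives were other scalings, background correction, filters and probes, slide and replicate blocks, array weights, and leaving out arrays.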

Additional observations from a re-analysis of the deposited data

Results flagged for a closer look

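In 4 of 52 groups of 6 tumours, formed from the 18 member probes that passed the filter and 8 named pathway genes, the gap between 1 tumour and the nearest other divided by the group's range exceeded Dixon's 95% critical value. Chance gives about 1 such group in 20, but the groups are not independent, since some probes read the same gene. Il1a was −3.70 in FAKi 2, against −4.98 to −4.76 in the other FAKi tumours. The upstream probe of Il1rn was −0.88 in FAKi 6, against 0.91 to 1.71 in the other FAKi tumours, and that of Il33 was −2.94 in vehicle 5, against −0.01 to 0.68 in the other vehicle tumours. Over the whole array the upstream minus downstream median was −0.56 in FAKi 6 and −0.72 in vehicle 5. The part of that shift in these values was not tested. Il18rap was −3.94 in vehicle 4, against −1.94 to −0.94 in the other vehicle tumours.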

How the results depend on the processing

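Of 280 alternative values for the 10 members, 0 passed adjustment (smallest limma adjusted p = 0.157) and 31 changed sign. Some of the 280 could not change sign, since the replicate block and another variance model leave a member's estimate as it is, and the filters repeated it. Il33, Il1rl1, Il1r1, Il1r2 and Il18 kept their sign in all of these values, which leave out differences inside 1 slide and other probes without some tumours. For Il1rl1 they include the soluble-form probe and a membrane-form probe that was not well above background on any array. The sign of that membrane-form probe (−0.16) therefore carries no weight. Inside slide 4, though not inside slide 1, the brightest probes of Il33, Il1r2 and Il18 changed sign (0.23, −0.16 and 0.15). The upstream Il33 probe gave 0.35 inside slide 1 and 0.85 inside slide 4. The soluble-form Il1rl1 probe gave 0.91 without FAKi 6, vehicle 5 and vehicle 6. Over settings that kept all tumours or left out several together, with the other probe over all tumours included, Il33 ran between −1.51 and −0.51. Il1a became 0.043 with normexp, 0.028 with slide as a block and 0.018 without FAKi 1 and FAKi 6. Il1b became −0.38 with array weights, −0.37 without FAKi 6, vehicle 5 and vehicle 6, and −0.27 with its downstream probe. Il1rn became 0.087 as the mean of its probes, 0.37 with slide as a block, 0.10 without FAKi 1 and FAKi 6, and 0.19 with its upstream probe. Il1rap became 0.010 with quantile normalisation, 0.011 with the authors' table, 0.47 with slide as a block, 0.39 with array weights and 0.47 without FAKi 6, vehicle 5 and vehicle 6. Il18r1 became 0.66 and Casp1 0.065 with slide as a block. Leaving out 1 tumour at a time gave −0.26 to 0.088 for Il1a, −0.14 to 0.36 for Il1b, −0.31 to 0.17 for Il1rn, −0.31 to 0.42 for Il1rap, −1.45 to −0.89 for Il33 and −0.98 to −0.50 for Il1rl1 (highest without vehicle 5). Il1r2 ran between 0.14 without FAKi 2 and 0.60 without vehicle 6, Il1r1 between −0.41 without vehicle 1 and −0.13 without FAKi 4, Il18 between −0.59 without vehicle 6 and −0.16 without FAKi 2, and Il18r1 between −0.78 without vehicle 6 and −0.035 without vehicle 3. With normexp Il1rl1 was −0.43, and with array weights Il18rap was −0.73. The causes were not tested.

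The number of genes that passed was 0, with 1 under normexp, 4 under array weights and 6 without FAKi 1 and FAKi 6, and 0 to 3 leaving out 1 tumour at a time. The replicate block, tried although the numbers do not pair the tumours, also gave 0 genes. Each such block holds 1 FAKi and 1 vehicle tumour, so it could not move the Il33 difference of −1.11. The count of member and marker list pairs past the threshold was 1, with 2 under quantile normalisation, the authors' table and the mean of probes, 3 under median centring and 4 under normexp. It was 0 without FAKi 6, vehicle 5 and vehicle 6, and 0 without the 2 farthest tumours. It was also 0 with slide means removed, within FAKi tumours and within vehicle tumours, where the few orders gave a pair alone no way to pass. The alternatives that left out several tumours together, and the detrend surface, were added after the data were seen. Dividing FAKi 1 and FAKi 6 by their surface left Il33 at −1.10.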
